A study of Mus musculus with 7 samples.

Results

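The alternative activation markers Chil3, Chil4, Retnla, Mgl2, Ear2 and F13a1 were followed in every library of a study of mouse bone marrow-derived dendritic cells (BMDCs). They were picked by gene symbol and are 6 of the 28666 genes in the deposited table. Their fall from immature to mature BMDCs and the scatter of Chil4 among the immature libraries were known when they were picked, so both are given as descriptions and carry no test. Each passed the filter on low counts.

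Alternative activation is the state that macrophages and related myeloid cells enter when IL-4 or IL-13 binds a receptor containing the IL-4 receptor alpha chain and the transcription factor STAT6 is phosphorylated. In the mouse it is recognised by secreted chitinase-like proteins, by the resistin-like molecule RELM alpha and by lectins of the cell surface. BMDC cultures that contain IL-4 can express the same genes.

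BMDCs were grown from the marrow of female C57BL/6 mice aged 6 to 8 weeks for 7 days in 20 ng/mL GM-CSF and 10 ng/mL IL-4. They were then kept in a Transwell system with MC38, a mouse colon carcinoma line, treated for 24 h with the glutamine antagonist DON (5 μM), and were sorted by flow cytometry into immature cells (3 libraries) and mature cells (4 libraries). These conditions come from the study's text, and the labels give only the cell type and the immature or mature state. The study's text gives DON for the sorted cells but a legend names DMSO or DON, so which of these each library received is not settled. The study paired DON with added glutamine in its glutamine-rich co-culture, and whether the sorted cells received it is not stated. Both groups carry the exposure to IL-4 and to MC38 cells, and no group without IL-4 is among these libraries. The gate that defined maturity in this sort is not given in the sources used here. Elsewhere the study defines mature dendritic cells by CD80 and CD86, so the levels of Cd80 and Cd86 may only restate the sort. The study says in general that its data rest on 3 or more independent biological experiments, unless a legend differs. It does not say for these libraries that those of a group came from separate cultures or animals, so the spread between them may be technical.

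Total counts per library ran from 54846746 to 67973086. Cd86, a costimulatory molecule of mature dendritic cells, was at 9.04 to 9.89 FPKM in the immature and at 91.5 to 119.9 FPKM in the mature libraries. Itgax, which encodes CD11c, was at 240.03 to 260.68 FPKM and at 160.84 to 227.19 FPKM. Mature replicates 2, 3 and 4 held 218 to 238 FPKM summed over 12 heart muscle markers, against 12.6 FPKM in mature replicate 1 and 2.11 to 2.62 FPKM in the immature libraries. Mature replicate 3 also stood furthest from the other mature libraries, with a median chi-square per gene of 17.7 to 25.6 against them, compared with 4.26 to 5.27 among those. FPKM is the count scaled by transcript length and library total, and CPM is the count relative to the normalized library size, without regard to length.

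In all, 5 of the 6 genes passed the study's criteria (a log2 fold change of 1 or more in size, with adjusted p below 0.05) in edgeR's quasi-likelihood fit, all of them lower in mature cells. Of all 17461 genes tested, 9.95% were called lower. For 6 of 6 the immature and mature CPM ranges lay apart, where 26.7% of tested genes were lower without overlap. Since the same contrast was used to choose the genes, these counts only restate the choice. Added together, the 6 genes reached 7046, 7296 and 7646 FPKM in immature replicates 1 to 3 and 1026, 869 and 1010 FPKM in mature replicates 1 to 3, with 1120 FPKM in mature replicate 4. That sum is 2.13 to 2.33% of all FPKM in an immature and 0.261 to 0.332% in a mature library, and Chil3 alone made up 70.4 to 75.5% of it.

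**Figure D1:**
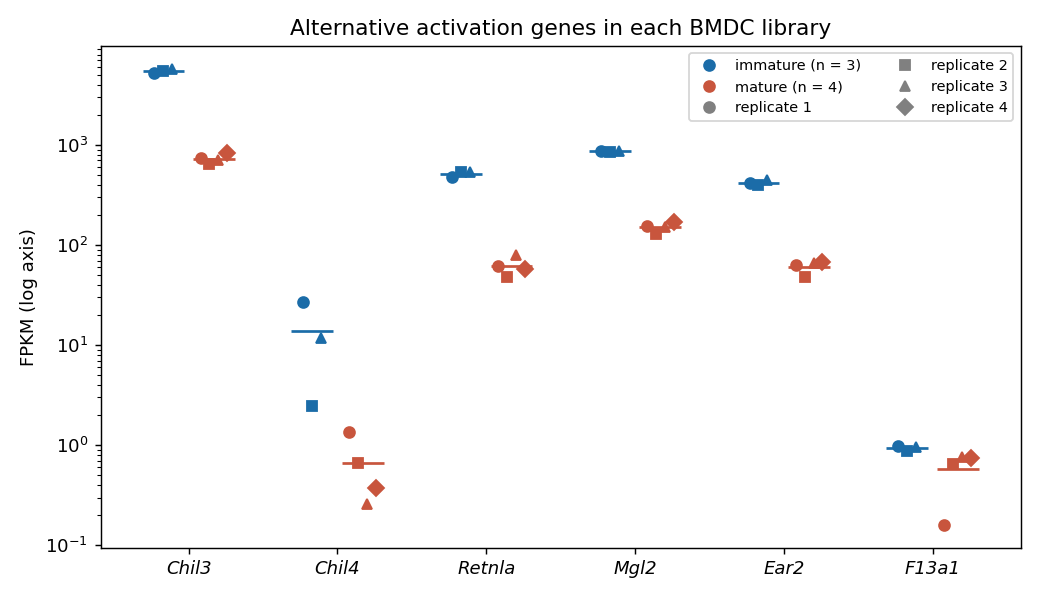
FPKM (log10 axis) of each of the 6 genes in every library, with immature replicates in blue and mature replicates in red, a marker shape for each replicate number and a horizontal line at each group mean. Chil3 runs from 5258 to 5774 FPKM in the immature libraries and from 645 to 824 FPKM in the mature ones, Chil4 is scattered within the immature group, and F13a1 is below 1 FPKM throughout.

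Because the genes share a pathway by reputation, the 250 bases before the RefSeq start of each (GRCm38.p6) were searched on both strands for the palindromic STAT motifs TTCNNNNGAA and TTCNNNGAA, and for TATAAA. The first, with a spacer of 4 bases, is the form that STAT6 is known to prefer. TTCNNNNGAA was present in 5.85% of 32841 promoters of the same length, TTCNNNGAA in 7.02%, either in 12.4%, and TATAAA also in 12.4%. Of the 6 genes, 3 had a STAT motif, and their promoters are printed here on the strand of the gene, 5′ to 3′, with the motifs in capitals, so that the likeness of the Chil pair can be seen. They lie at chr3:106167565-106167814 (minus strand) for Chil3, chr3:106219480-106219729 (minus strand) for Chil4 and chr16:48842359-48842608 (plus strand) for Retnla.
Chil3: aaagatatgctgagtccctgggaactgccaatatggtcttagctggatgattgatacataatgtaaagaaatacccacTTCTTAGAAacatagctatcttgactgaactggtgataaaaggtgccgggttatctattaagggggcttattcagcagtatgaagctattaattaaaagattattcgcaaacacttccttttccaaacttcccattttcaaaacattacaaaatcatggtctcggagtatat
Chil4: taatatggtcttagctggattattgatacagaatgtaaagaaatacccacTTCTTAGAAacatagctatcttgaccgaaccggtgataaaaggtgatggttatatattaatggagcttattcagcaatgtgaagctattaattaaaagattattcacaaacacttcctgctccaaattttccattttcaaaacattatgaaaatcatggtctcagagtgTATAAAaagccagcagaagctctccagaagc
Retnla: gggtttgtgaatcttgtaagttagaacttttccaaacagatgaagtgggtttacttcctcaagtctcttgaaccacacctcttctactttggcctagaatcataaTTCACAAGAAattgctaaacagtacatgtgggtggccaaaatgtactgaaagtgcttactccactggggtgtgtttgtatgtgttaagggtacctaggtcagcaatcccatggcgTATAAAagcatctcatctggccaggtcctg

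Chil3 and Chil4 carried TTCTTAGAA, beginning 172 and 200 bases before their starts, and Retnla carried TTCACAAGAA, beginning 145 bases before. The RefSeq starts of Chil4, Retnla and Mgl2 lie inside the genes as the deposited table bounds them. TATAAA began 31 bases before the Chil4 start and 30 before the Retnla start. In Chil3 it began 3 bases before the RefSeq start and so ran past the end of the stretch printed. Aligned with each other, the Chil3 and Chil4 stretches were 90.1% identical (201 of 223 columns, with 20 mismatches and 2 gaps), while the other pairs of members gave 45.1 to 51.7%. Neither STAT motif nor TATAAA was found in the same window of Mgl2, Ear2 or either start of F13a1. A match is a string of letters and not a measured binding site, and its absence covers only these letters in this window.

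Chil3 encodes Ym1, a secreted chitinase-like lectin without chitinase activity that can crystallise in inflamed airways. It lies on the minus strand of chromosome 3 at 106147554 to 106167564 (GRCm38, 11 exons). Its level was 5258, 5501 and 5774 FPKM in immature replicates 1 to 3. In mature replicates 1 to 4 it was 747, 645, 711 and 824 FPKM. The groups were far apart, and within each the libraries were close, with the highest immature library 1.14-fold above the lowest. By FPKM it ranked 4 of all genes in every immature library and 54, 59, 73 and 50 in mature replicates 1 to 4. It took 0.927 to 1.05% of all counts in an immature and 0.114 to 0.146% in a mature library. The fitted log2 fold change, mature against immature, was -3.02 (SE 0.11, n = 3 and 4), or 8.11-fold lower in mature cells, and 89 of the 17461 genes tested fell further.

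Chil4 encodes Ym2, the closest relative of Ym1, and is 33926 bases from Chil3 in the same orientation, on chromosome 3 at 106201490 to 106219507 (11 exons). Its counts were 5031, 436 and 2530 in immature replicates 1 to 3, which were 26.95, 2.48 and 11.90 FPKM. In mature replicates 1 to 4 the counts were 265, 127, 44 and 70, or 1.37, 0.66, 0.26 and 0.37 FPKM. Immature replicate 1 was high, replicate 3 intermediate and replicate 2 low, and the last stood only 1.95-fold (CPM) above the highest mature library. The span within the immature group was 10.9-fold, and within the mature group, where replicate 1 was highest and replicate 3 lowest, it was 4.83-fold. On the log2 CPM scale the SD of Chil4 was 1.76 among the immature libraries and 0.98 among the mature ones. The log2 fold change was -4.47 with an SE of 0.80, the largest fall and the largest error of the 6 genes. It was -3.57 without immature replicate 1, -4.97 without immature replicate 2 and -5.08 without mature replicate 1.

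The spread of Chil4 was not shared by its neighbour. Chil3 was highest in immature replicate 3 and lowest in replicate 1, the library with most Chil4, and its log2 CPM had an SD of 0.096 in that group. As a share of the Chil3 count, Chil4 was 0.885%, 0.0781% and 0.356% in immature replicates 1 to 3. In the mature libraries the share was 0.318%, 0.180%, 0.0633% and 0.0794%. These shares overlapped between the groups, with means of 0.440 ± 0.410% (SD, n = 3) and 0.160 ± 0.117% (SD, n = 4), so the order of Chil4 among libraries was not that of Chil3 at a fixed ratio.

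The longest coding transcripts of Chil3 and Chil4 are both 1539 bases long and 94.3% identical (1452 of 1540 aligned columns). None of the 1390 windows of 150 bases in either transcript, the length of 1 read, occurred unchanged in the other. How the counting treated a read that fits both genes with mismatches is not given in the sources used here, and whether such reads entered the Chil4 counts was not tested. The remaining chitinase-like genes of the cluster were near 0, with at most 0.08 FPKM for Chil5, 0.10 FPKM for Chil6 and 0.02 FPKM for Chia1 in any library.

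**Figure D2:**
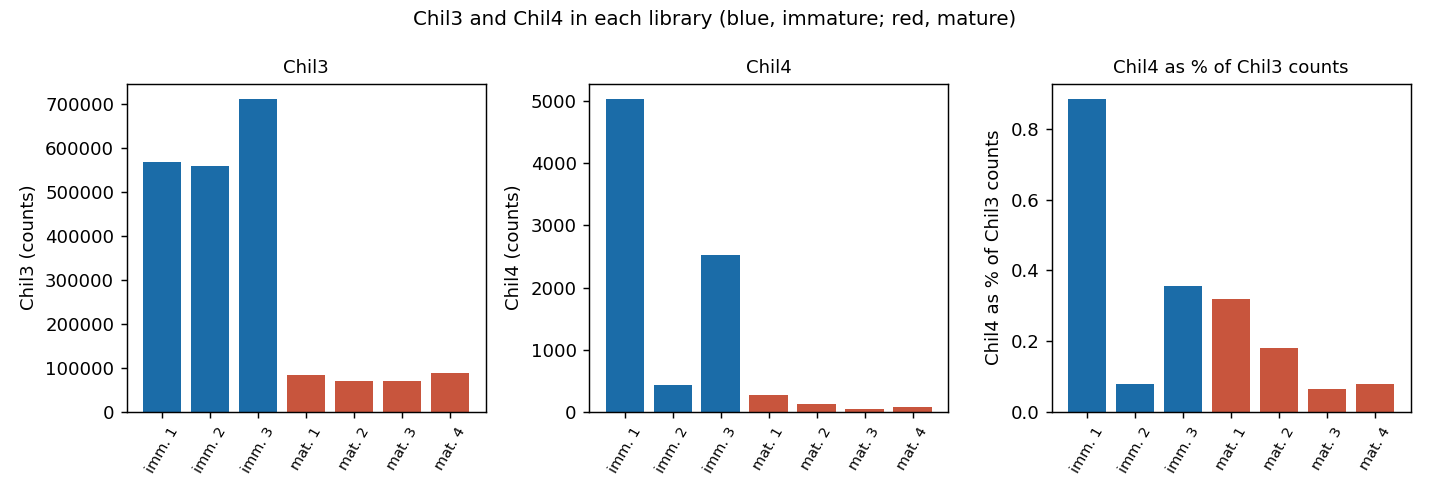
Raw counts of Chil3 (left) and Chil4 (middle) and the Chil4 count as a percentage of the Chil3 count (right), as a bar for each library from 0, with immature replicates in blue and mature replicates in red. Chil4 counts run from 436 to 5031 among the immature libraries, and the percentage overlaps between the groups.

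Retnla encodes RELM alpha, a small secreted cysteine-rich protein that rises in tissues under IL-4 or IL-13. It lies on the plus strand of chromosome 16 at 48842551 to 48844461 (4 exons). Its level was 481, 538 and 533 FPKM in immature replicates 1 to 3. It was 62.2, 47.5, 80.1 and 57.2 FPKM in mature replicates 1 to 4. The immature libraries lay together and well above the mature ones, among which replicate 3 was highest and replicate 2 lowest. The log2 fold change was -3.16 (SE 0.20), an 8.95-fold difference, and the lowest immature library was 5.98-fold above the highest mature one in CPM. Retnlg, its neighbour 28160 bases away and 82.8% identical in transcript, had at most 0.72 FPKM, and no window of 150 bases was common to the pair.

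Mgl2 encodes a galactose-type C-type lectin, also called CD301b, that is found on alternatively activated macrophages and on a subset of dermal dendritic cells. It lies on the plus strand of chromosome 11 at 70130329 to 70137550 (9 exons). Its level was 865, 859 and 875 FPKM in immature replicates 1 to 3. In mature replicates 1 to 4 it was 153, 128, 152 and 171 FPKM. The immature libraries were almost level, with an SD of 0.048 on the log2 CPM scale that was larger than in 15.3% of all tested genes, and the mature ones did not reach them. The log2 fold change was -2.62 (SE 0.12), a 6.17-fold difference, the smallest among the 5 genes past the criteria. Clec10a, the related lectin gene 18647 bases away, was 74.8% identical to it in transcript, and 34 of 1486 windows of 150 bases were common to both, so a small part of the reads could belong to either.

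Ear2 encodes a ribonuclease A family protein named for its presence in eosinophil granules. It lies on the plus strand of chromosome 14 at 44102654 to 44103534 (2 exons). Its level was 414, 395 and 450 FPKM in immature replicates 1 to 3. It was 62.7, 47.9, 65.7 and 67.4 FPKM in mature replicates 1 to 4. Again the groups did not overlap, and mature replicate 2 was the lowest library. The log2 fold change was -2.89 (SE 0.15), a 7.39-fold difference. Ear2 has near copies: Ear1 is 96.2% identical in transcript, with no shared window of 150 bases, and Ear10 is 94.5% identical, with 36 of 570 windows shared. Ear1 reached at most 0.28 FPKM and Ear10 at most 0.98 FPKM. The antisense gene Gm49101 covers Ear2 at no more than 0.38 FPKM, and the dUTP library protocol marks strand, but the strand setting of the counting is not given in the sources used here.

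Most genes of the eosinophil marker list, which holds neither Ear2 nor its ribonuclease relatives, were scarce. Among those relatives, Rnase2a was above Ear2 in every library, at 532 to 582 FPKM in the immature and 87.4 to 117 FPKM in the mature libraries. Epx and Prg3, which encode eosinophil peroxidase and a granule protein, were at 0 in every library, and 6 of 7 eosinophil markers were under 1 FPKM everywhere. The exception was Siglecf, a sialic acid-binding lectin also found on some macrophages, which fell by 2.57 on the log2 scale (SE 0.11, edgeR adjusted p = 6.5e-07). Il5ra, the receptor for IL-5, had 4, 0 and 0 counts in the immature and 30, 25, 20 and 11 in the mature libraries and was the 1 eosinophil marker called higher, though it passed the filter on low counts only through the mature group. Prg2, which encodes major basic protein, was at 0.07, 0 and 0.17 FPKM against 0.66, 0.65, 0.73 and 0.13 FPKM and was not called. The median log2 fold change of the 4 eosinophil markers tested was 1.03. Siglecf supplied nearly all of the summed marker level of 24.6 to 28.1 FPKM in immature and 5.20 to 5.91 FPKM in mature libraries.

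F13a1 encodes the catalytic A subunit of coagulation factor XIII, a transglutaminase that cross-links fibrin, and is expressed by many monocytes and macrophages. It lies on the minus strand of chromosome 13 at 36867178 to 37050244 (15 exons). Its counts were 441, 371 and 483 in immature replicates 1 to 3, or 0.98, 0.88 and 0.95 FPKM. In mature replicates 1 to 4 they were 76, 297, 308 and 329, or 0.16, 0.65, 0.76 and 0.74 FPKM. The immature libraries were level, mature replicates 2 to 4 lay slightly below them and mature replicate 1 lay far below, 5.06-fold under the highest mature library in CPM. The lowest immature library was only 1.14-fold above the highest mature one. The log2 fold change was -0.79 (SE 0.44), under the criterion of 1. Its size rests on mature replicate 1: without that library it was -0.48, and that library alone was -2.65 from the immature mean.

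Mature replicate 1 was also the mature library with few heart muscle transcripts. The 12 heart markers summed to 12.6 FPKM there and to 221, 238 and 218 FPKM in mature replicates 2 to 4. In mature replicate 1, 11.18 FPKM of that sum was Tnni3 alone, and each of the other markers was at 0.41 FPKM or less. The 12 markers together were at 2.11, 2.62 and 2.47 FPKM in immature replicates 1 to 3. All 10 markers tested were called higher in mature cells (13.2% of all genes tested were), and Myl7 was at 0 everywhere. Myl2, Myl3, Ryr2 and Nppa passed the filter on low counts only through the mature group. By CPM, Myh6, Mybpc3, Pln and Nppa in mature replicate 1 did not exceed the highest immature library, while the other markers tested did. The calls of those that did not exceed it rest on mature replicates 2 to 4. The order of the mature libraries for F13a1 was the same as for the summed heart markers in placing replicate 1 lowest and replicate 3 highest, although the immature libraries, which had the most F13a1, had the fewest heart transcripts. The part of this material in the F13a1 values was not tested.

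**Figure D3:**
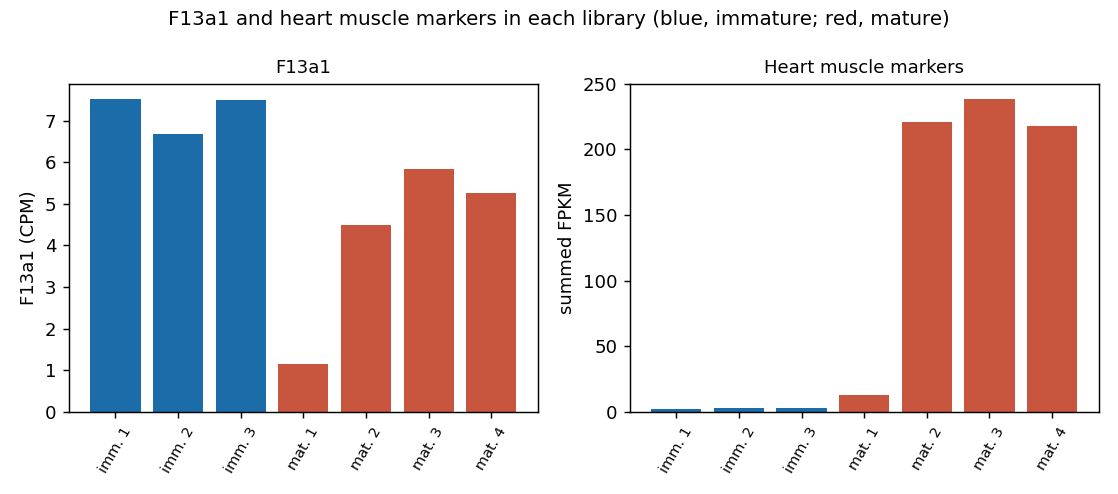
F13a1 in CPM (left) and the summed FPKM of 12 heart muscle markers (right) in each library, with immature replicates in blue and mature replicates in red, both axes starting at 0. Mature replicate 1 is the lowest mature library in both panels, at 1.15 CPM and 12.6 FPKM.

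By FPKM the order of the genes in the immature libraries was Chil3, Mgl2, Retnla, Ear2, Chil4 and F13a1, and it was so in each of the 3 libraries. In the mature libraries Chil3 and Mgl2 again came first, but Retnla and Ear2 could not be ordered, with means of 61.8 ± 13.7 and 60.9 ± 8.89 FPKM (SD, n = 4). Chil4 and F13a1 could not be ordered there either, at 0.665 ± 0.499 and 0.578 ± 0.282 FPKM. Mature replicate 2 was the lowest mature library for Chil3, Retnla, Mgl2 and Ear2, replicate 3 for Chil4 and replicate 1 for F13a1.

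Across the 7 libraries, Chil3, Retnla, Mgl2 and Ear2 followed each other with Pearson correlations of log2 CPM between 0.992 and 0.999. Chil4 followed those 4 less closely, at 0.837 to 0.863, and F13a1 correlated with the other members at 0.323 to 0.586. These values describe 7 points that share libraries, depth and a gap between groups, and they carry no test. Among 8974 other genes with a mean of at least 10 CPM, the patterns nearest to Chil3 were those of Hk3, a hexokinase (r = 0.9997), Psap, the precursor of the saposins (0.9996), and Gng2 (0.9995). Those nearest to Mgl2 were F7, which encodes coagulation factor VII (0.9996), Mmp9, a gelatinase (0.9996), and the lipid carrier gene Pltp (0.9994). Ear2 was closest to the ribonuclease gene Rnase2a (0.9996), Mgl2 (0.999) and Clptm1l (0.999), and Retnla to Hcfc2 (0.9992), Shmt2 (0.9991) and Yars (0.9989). Chil4 had no partner as close, its nearest being Herc4 (0.977), Eif5b (0.971) and Golga5 (0.970), and Herc4 spanned only 55.1 to 77.6 CPM over all libraries. F13a1, compared with 8975 genes, was nearest to Atp2a2 (0.989), Acaa2 (0.989) and Clmp (0.989). Atp2a2, the calcium pump of the sarcoplasmic reticulum, was at 295, 273 and 273 CPM in the immature libraries and at 111, 234, 232 and 243 CPM in mature replicates 1 to 4, so that it too was lowest in mature replicate 1.

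Genes of the IL-4 receptor route, which leads to alternative activation, were called in both directions. Of 22 such genes 21 were tested, and 2 were called lower and 3 higher in mature cells, which is 23.8% against 23.1% of all genes, with a median log2 fold change of -0.03 beside 0.05 over all genes. Il4ra, the receptor chain that binds IL-4, was at 245 ± 8.67 CPM in immature cells (SD, n = 3) and at 516 ± 33.6 CPM in mature cells (SD, n = 4), and so rose by 1.08 on the log2 scale (SE 0.083, edgeR adjusted p = 1.2e-05). Jak3, the kinase bound to the common gamma chain, rose by 1.69 (SE 0.075, edgeR adjusted p = 6.6e-07). Jak2, a kinase used by the GM-CSF receptor among others, rose by 1.51 (SE 0.13, edgeR adjusted p = 2.5e-05). The common gamma chain gene Il2rg differed by 0.54 (SE 0.081, edgeR adjusted p = 0.000665), under the fold criterion. Stat6 itself was at 277 ± 11.4 and 272 ± 17.8 CPM, a difference of -0.03 (SE 0.081, edgeR adjusted p = 0.810) whose sign turned under upper-quartile normalization, under both limma fits on FPKM and without mature replicate 3. The 2 genes called lower were Rnf128, an E3 ubiquitin ligase, at -1.86 (SE 0.18, edgeR adjusted p = 4.1e-05), and Irs2, an adaptor of the IL-4 and insulin receptors, at -1.38 (SE 0.13, edgeR adjusted p = 3.6e-05).

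Among 35 other genes linked to alternative activation, most of those called were lower in mature cells, as the members were. Of the 34 tested, 20 were called lower and 2 higher (64.7% in either direction, against 23.1% of all genes), and the median log2 fold change was -1.69. Mrc1, the mannose receptor CD206, fell by 3.43 (SE 0.10, edgeR adjusted p = 1.8e-07), from 158 ± 15.2 to 14.7 ± 1.16 CPM. Arg1, the arginase that consumes arginine, fell by 3.34 (SE 0.13, edgeR adjusted p = 4.1e-07), from 2482 ± 80.4 to 245 ± 36.8 CPM. Mmp12, the macrophage elastase, fell by 2.33 (SE 0.15, edgeR adjusted p = 4.5e-06). Cd209a, a DC-SIGN homologue, had 42, 16 and 38 counts in the immature and 0, 4, 0 and 7 in the mature libraries. It is among the 20 called lower but passed the filter on low counts only through the immature group, and it lost the call without immature replicate 1 or 3.

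The 3 chemokines on that list differed among themselves. Ccl22, a ligand of CCR4 that mature dendritic cells also secrete, rose from 917 ± 41.7 to 8879 ± 955 CPM, a log2 fold change of 3.28 (SE 0.12, edgeR adjusted p = 3.0e-07). Ccl17, the other CCR4 ligand, was at 576 ± 65.4 and 657 ± 226 CPM (log2 fold change 0.19, SE 0.23, edgeR adjusted p = 0.539), with the sign turned without mature replicate 3. Ccl24, a ligand of CCR3, was at 73.5, 87.0 and 88.9 CPM in immature replicates 1 to 3 and at 54.3, 51.7, 92.9 and 58.1 CPM in mature replicates 1 to 4 (log2 fold change -0.37, SE 0.20, edgeR adjusted p = 0.165), where mature replicate 3 lay above every immature library. The sulfotransferase gene Chst7 rose by 2.16 (SE 0.16, edgeR adjusted p = 8.7e-06) from a low level of 7.25 ± 1.10 CPM.

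Relatives of the members within their own protein families were compared last. Of 32 such genes 4 (Retnlb, Ear14, Tgm3 and Tgm7) were not found by symbol among the 28666 genes and 12 had too few counts to test. Among the latter were Chil1, Chil5, Chil6, Chia1 and Chit1, which left Chil3 and Chil4 as the Chil genes that could be tested. Of the 16 tested, 10 were called lower and 1 higher (68.8% in either direction, against 23.1% of all genes), with a median log2 fold change of -1.31. Among the ribonucleases, Rnase2a fell by 2.48 (SE 0.14, edgeR adjusted p = 1.8e-06) from 432 ± 32.8 to 77.5 ± 12.8 CPM. The rarer Rnase2b had 19, 52 and 38 counts against 4, 4, 0 and 0, and Ear10 had 16, 19 and 51 against 3, 8, 2 and 2. Both are among the 10 called lower, but they passed the filter on low counts only through the immature group, and Ear10 lost the call without immature replicate 3 and when replicate numbers were blocked. Ang, also among the 10, was at -1.03 (SE 0.17, edgeR adjusted p = 0.00135), close to the fold criterion, and lost the call in 7 alternatives.

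Beside Mgl2, the lectin genes Clec10a and Asgr2 of the same cluster on chromosome 11 fell by 2.46 (SE 0.16, edgeR adjusted p = 4.3e-06) and 1.64 (SE 0.17, edgeR adjusted p = 7.2e-05). Beside F13a1, the tissue transglutaminase gene Tgm2 differed by -0.79 (SE 0.078, edgeR adjusted p = 5.8e-05), the size seen for F13a1 but from 1145 ± 18.1 to 663 ± 42.0 CPM and with a far smaller error. Ovgp1, an oviduct glycoprotein gene of the chitinase family, had 32, 54 and 43 counts against 178, 79, 71 and 90 (log2 fold change 1.20, SE 0.39, edgeR adjusted p = 0.0331), and the call was lost without immature replicate 1 or 3 or mature replicate 1 and with the replicate block. Rnase2a, Clec10a and Tgm2 stand on this list and the preceding one, so the counts of both lists share 3 genes.

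**Figure D4:**
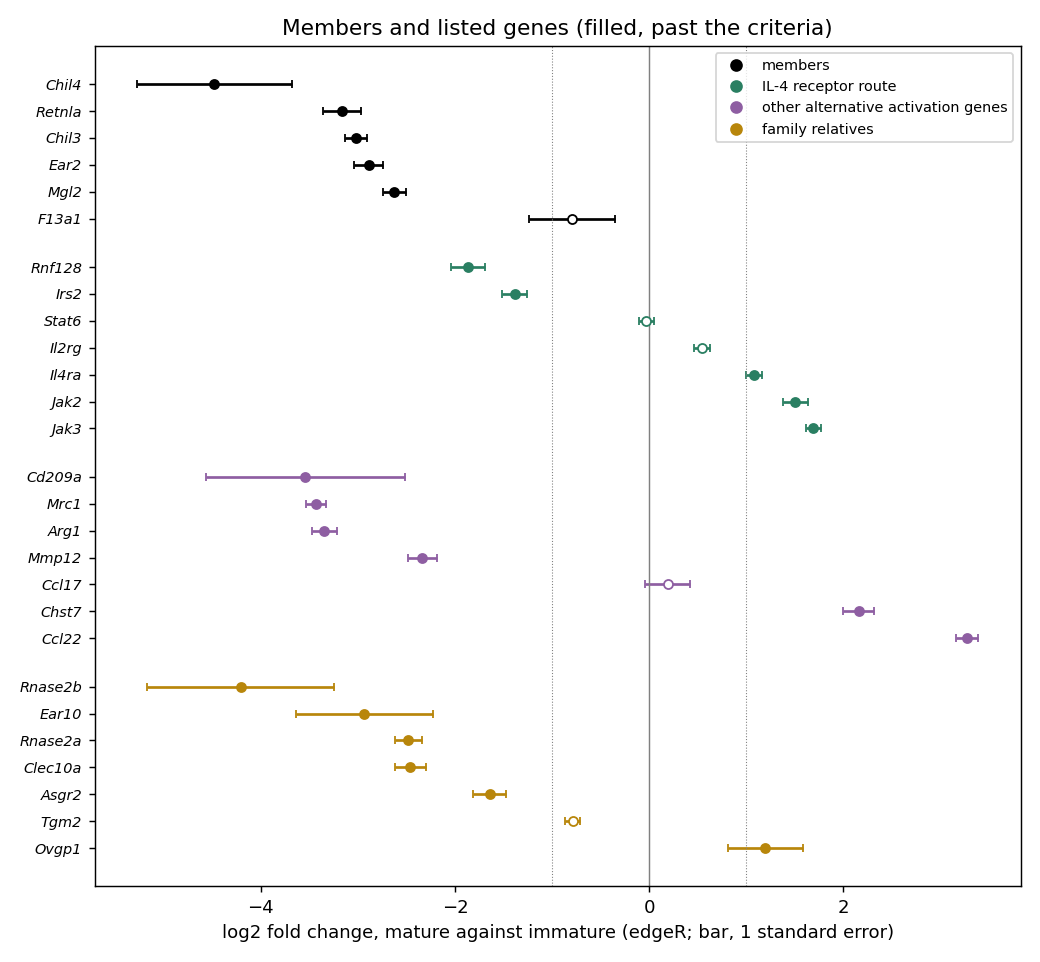
Log2 fold change, mature against immature, of the 6 members and of the genes named from the 3 lists, with bars of 1 standard error (edgeR, 3 and 4 libraries); filled points passed the criteria, and dotted lines mark a log2 fold change of 1 in each direction. The members run from -4.47 to -0.79, the genes Il4ra, Jak2 and Jak3 of the IL-4 receptor route lie to the right of 1, and Ccl22 is furthest right at 3.28.

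Marker lists of other cell types went in different directions. Of 13 macrophage and monocyte markers tested, 11 were called lower (9.95% of all genes were) and none higher, with a median log2 fold change of -2.60. Their FPKM summed to 1082 to 1113 in the immature and 208 to 232 in the mature libraries. Of 12 dendritic cell markers, 8 were called higher (13.2% of all genes were) and none lower. The 12 summed to 4144 to 4279 FPKM in the immature and 6762 to 8666 FPKM in the mature libraries. Cd74 alone made 3387 to 3491 and 4345 to 6029 FPKM of this. The list holds markers of maturity such as Cd80 and Cd86. The cells were sorted by maturity, so such calls may only restate the sort. Itgax, H2-Ab1, Cd74 and Ciita were not called, and Itgax was lower in mature cells (log2 fold change -0.41). Of 7 neutrophil markers tested, 3 were called lower (9.95% of all genes were) and none higher. The neutrophil list summed to 163 to 170 FPKM and 33.2 to 54.2 FPKM. Mmp8 was at 127 to 134 and 13.8 to 23.3 FPKM, and Lcn2, not called, at 27.0 to 31.4 and 10.8 to 20.9 FPKM. Cxcr2 went the other way, at 3.03 to 3.57 and 4.98 to 8.33 FPKM, and was not called. Ly6g and S100a9, both under 1 FPKM, also had positive log2 fold changes and were not called. The granule genes Mpo, Ngp, Camp and Ltf did not exceed 0.14 FPKM. In bulk RNA, fewer cells of a type and less of an RNA per cell cannot be told apart, and the part of macrophage-like or neutrophil-like cells in the fall of Chil3, Retnla, Mgl2 and Ear2 was not tested.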

How the data were processed

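RNA of flow-sorted immature (3 libraries) and mature (4 libraries) BMDCs was analysed, with groups and replicate numbers from the labels and culture conditions from the paper. Deposited by the authors were raw read counts of each gene, not normalized, and FPKM values rounded to 2 decimals. The submitters' processing notes name cutadapt 1.9, HISAT2 2.2.1, StringTie 2.1.6, DESeq2, edgeR and build mm9, but 25842 of 28588 gene IDs found in GENCODE M21 (90.4%) have their GRCm38 coordinates in the table, so coordinates are given as GRCm38. The counting program and its strand setting are not given in the sources used here.

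Counts were fitted in R 4.3.3 with edgeR 4.0.16 (its filter on low counts, TMM, quasi-likelihood test, all 7 libraries), and p-values were adjusted by Benjamini-Hochberg over all 17461 genes tested. Total counts of 54846746 to 67973086 limit only counting error. The members and gene lists were chosen with earlier results of these data known. Besides the members, genes were named by a rule: in each list the 4 with the highest mean FPKM and the 2 largest falls and rises past the criteria, and for each member the 3 nearest patterns. Marker genes, cluster neighbours, Ccl24, Irf4, Pparg, Klf4, Egr2, Igf1 and Ang were named after their values were seen. Alternatives were limma 3.58.1 on log2(FPKM + 1) or log2(FPKM + 0.1) for genes with at least 1 FPKM in 3 libraries, DESeq2 1.42.0, upper-quartile normalization, other filters, no fold criterion, a replicate block and leaving out each library. The comparison of mature replicate 1 alone was added after seeing the data. Fits were tested on simulated counts with known changes. Sequences are RefSeq's on GRCm38.p6, searched and aligned with biopython 1.88, and all 6 members were matched. No protein sequences were used here.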

Additional observations from a re-analysis of the deposited data

Results flagged for a closer look

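Among 39 values examined in the 4 mature libraries, 6 had 1 library apart from the other 3 by Dixon's criterion (its gap as a share of the group's whole span), where chance gives about 1.95. None was the level of a member. The summed heart muscle markers had a ratio of 0.911, with mature replicate 1 at 12.6 FPKM and the others at 218 to 238 FPKM. Jak2 had a ratio of 0.873 (mature replicate 3 low, 1233 CPM against 1648 to 1708 CPM) and Il2rg 0.861 (mature replicate 3 high, 286 CPM against 246 to 252 CPM). The lymphocyte markers had a ratio of 0.84 (mature replicate 3 high, 0.73 FPKM against 0.48 to 0.52 FPKM). Ear10 had a ratio of 0.848 (mature replicate 2 high, 0.121 CPM against 0.0320 to 0.0455 CPM) and Ovgp1 0.837 (mature replicate 1 high, 2.70 CPM against 1.19 to 1.44 CPM). The causes were not tested.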

How the results depend on the processing

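No alternative turned the direction of a member. Leaving out each library gave log2 fold changes of -3.07 to -2.94 for Chil3, -5.08 to -3.57 for Chil4, -3.33 to -3.03 for Retnla, -2.67 to -2.53 for Mgl2, -2.94 to -2.76 for Ear2 and -0.97 to -0.48 for F13a1. Chil4 was at -2.74 with limma on log2(FPKM + 1), a scale that understates changes of low genes by construction, and F13a1 was at -2.65 when mature replicate 1 alone stood for the mature group. F13a1 had no value under limma, since it did not reach the FPKM minimum.

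Of all genes, 4037 passed the criteria (1737 lower, 2300 higher), and 3646 to 4052 when a library was left out. With limma on log2(FPKM + 0.1) the count was 2561 (1390 higher), with log2(FPKM + 1) it was 1768 (822 lower, 946 higher), and with the adjusted p alone it was 8053 (4006 lower, 4047 higher). With the adjusted p alone, 12 genes of the IL-4 receptor route passed instead of 5, and 7 family relatives passed under each limma fit instead of 11. Leaving out a library left 5, 21 to 24 and 9 to 11 genes past the criteria in the 3 lists. Of the other alternative activation genes, 2 were called higher with every library included, 2 to 4 with a library left out and 5 with the adjusted p alone. Ovgp1, the 1 family relative called higher, lost the call (0 called) without a filter and with the replicate block, as Ear10 did with the block. The count was also 0 under both limma fits, where Ovgp1 did not reach the FPKM minimum and was not tested, and the count was 0 to 1 with a library left out. Upper-quartile normalization moved the median log2 fold change of all genes from 0.05 to 0.16, with Chil4 then at -4.36 and F13a1 at -0.68. Irf4, under the fold criterion here, passed in 7 alternatives.

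The labels give both groups replicate numbers, but no source says whether same-numbered libraries share an animal or culture. Deviations from the group means correlated at r = 0.029, -0.0011 and 0.014 for same-numbered libraries. For the other pairs r ran from -0.048 to 0.036. Values this few and this near 0 cannot settle whether the libraries are paired, and the main fit treats them as unpaired. With the replicate block, 3616 genes passed, Chil4 was at -3.99 and F13a1 at -1.16, mature replicate 4 having no partner.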

Other observations

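Transcription factor genes on the list of other alternative activation genes, singled out after their values were seen, were called lower beside Chil3, Retnla, Mgl2 and Ear2. Pparg, the nuclear receptor of lipid handling, fell by 2.47 on the log2 scale (SE 0.14, edgeR adjusted p = 2.4e-06), to 3.07 ± 0.417 CPM in mature cells (SD, n = 4). Klf4 fell by 2.47 (SE 0.18, edgeR adjusted p = 1.0e-05), from 223 ± 51.3 (SD, n = 3) to 40.2 ± 7.64 CPM, and Egr2 by 1.62 (SE 0.099, edgeR adjusted p = 3.3e-06), from 196 ± 19.2 to 63.9 ± 5.26 CPM. Irf4, which dendritic cells also use, was at 207 ± 11.2 and 410.1 ± 43.3 CPM, a log2 fold change of 0.99 (SE 0.10, edgeR adjusted p = 7.8e-05) just under the criterion of 1. The growth factor gene Igf1, also singled out afterwards, fell by 3.06 (SE 0.081, edgeR adjusted p = 1.3e-07), about as far as Chil3.

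On chromosome 3 the uncharacterised gene Gm6522, 107636 bases from Chil3, was at 1.70, 2.42 and 1.61 FPKM in immature replicates 1 to 3. It was listed at 0 in mature replicates 1, 3 and 4 and was at 0.32 FPKM in replicate 2. Among the remaining marker lists, basophil and mast cell genes summed to 1.46 to 1.63 FPKM in immature and 5.64 to 6.84 FPKM in mature libraries. Kit made most of the mature sum, at 0.44 to 0.63 and 2.94 to 4.44 FPKM. Cpa3, Mcpt8, Ms4a2, Fcer1a and Tpsb2 did not exceed 0.46 FPKM in any library. Lymphocyte genes summed to 0.31 to 0.40 and 0.48 to 0.73 FPKM, and epithelial genes to 6.18 to 11.4 and 4.15 to 11.8 FPKM.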
